A study of Mus musculus with 4 samples.

Results

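Scavenger receptors of lung macrophages were followed here as a set of 8 genes, *Colec12*, *Marco*, *Msr1*, *Mrc1*, *Cd163*, *Stab1*, *Clec7a* and *Olr1*. The genes were chosen by symbol, with values of these same libraries in view, the level of *Colec12* in alveolar macrophages among them, so their levels are a description and carry no test. Of the 8, 7 were measured among 32285 genes, and *Clec7a*, which encodes the β-glucan receptor Dectin-1, was not analysed here. Unique molecular identifiers (UMIs), which count captured RNA molecules, were summed for each gene in each library over alveolar macrophages, interstitial macrophages, monocytes and endothelium.

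The libraries came from wild type C57BL/6 male mice that were either young (2 to 3 months) or aged (22 months). The paper describes a food-restricted diet for the mice aged to 22 months and does not state the diet of the young ones. A difference between the ages may therefore include diet. Ventilated mice were anesthetized and received mechanical ventilation for 3 h at a tidal volume of 20 mL/kg, a setting that stretches the lung. The volume had an upper limit that applied to heavier mice, and aged mice were in general heavier than young ones. The volume per body weight may thus have differed between the ages. Nonventilated controls were naive animals, so ventilation cannot be told apart from anesthesia and the procedures that came with it. Left lobe cells were frozen and thawed, and cells from 3 animals a group were then pooled for droplet capture. This gave 1 library for each of the 4 groups, that is, nonventilated and ventilated libraries at each age. With 1 pooled library a group there was no replicate spread and no test. All intervals below are 95% intervals that cover counting error only, and a difference between libraries includes any difference between animals and between captures. The intervals treat each captured molecule as independent, so they do not cover an uneven spread of molecules over cells.

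Scavenger receptors are surface proteins with which macrophages and some endothelial cells bind and take up modified lipoproteins, microbes, inhaled particles and debris. The class A receptors *Marco*, *Msr1* and *Colec12* carry a collagen-like stalk and bind polyanions, and *Colec12* also ends in a C-type lectin domain that binds sugars. *Mrc1* (CD206) takes up mannose-bearing glycoproteins, *Cd163* takes up the hemoglobin and haptoglobin complex, *Stab1* (stabilin-1) clears acetylated lipoprotein and matrix fragments, and *Olr1* (LOX-1) binds oxidized lipoprotein. Alveolar macrophages line the airspaces and live with surfactant, whereas interstitial macrophages lie in the tissue and around vessels.

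The files held 3400 to 4497 barcodes per library and 40655452 to 45218176 UMIs, and 2171 to 2976 cells per library passed the limits on genes, mitochondrial share and UMIs (10160 cells in all). At most 7 barcodes were shared by a pair of libraries. Cells were clustered and clusters were named "-like" from marker genes that held none of the receptors. This gave 99, 108, 98 and 52 alveolar macrophage-like cells (in the order of young nonventilated, then young ventilated, then aged nonventilated, then aged ventilated, which is kept throughout). In the same order there were 86, 59, 81 and 67 interstitial macrophage-like cells, 252, 384, 484 and 370 monocyte-like cells, and 998, 1076, 824 and 666 endothelial-like cells. The "-like" is left off below. Clustering used all variable genes: *Mrc1* was among the 10 leading genes of the alveolar macrophage cluster and *Msr1* among those of 2 classical monocyte clusters, so the presence of these genes in these types is no finding.

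Each receptor had its own distribution over cell types. Of all *Marco* UMIs, 98.4% lay in alveolar macrophages, the most exclusive pattern of the set. Alveolar macrophages also held 73.3% of *Mrc1* UMIs and 66.0% of *Olr1* UMIs, and interstitial macrophages held 21.6% of *Mrc1* and 88.0% of *Cd163*. *Msr1* was foremost a monocyte gene here, with 75.2% of its UMIs in classical monocytes, 14.0% in nonclassical monocytes and 8.22% in interstitial macrophages. *Stab1* lay mainly in endothelium (73.5%), followed by interstitial macrophages (14.3%) and monocytes (7.93%). *Colec12* was mostly a fibroblast gene: alveolar fibroblasts held 64.6% of its UMIs, adventitial fibroblasts 14.5% and alveolar macrophages 9.87%.

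**Figure D1:**
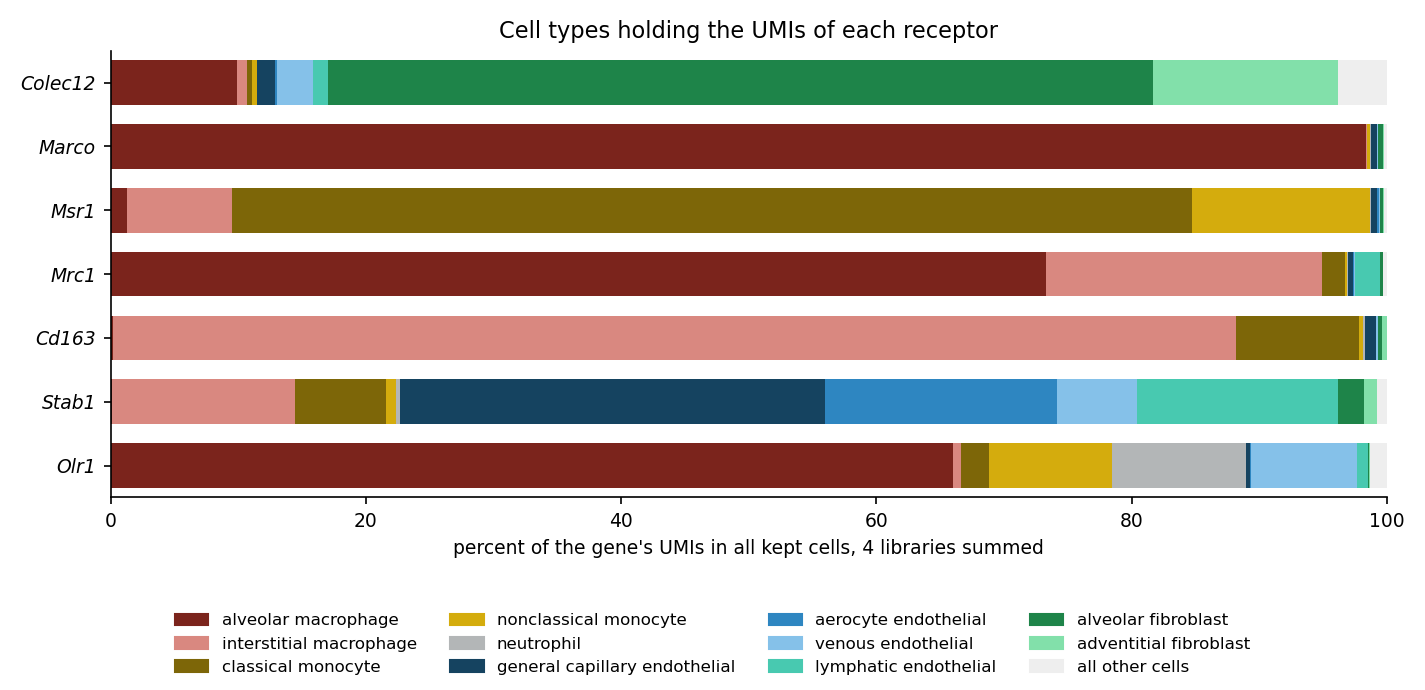
Share of each receptor's UMIs (x axis, percent, all kept cells of the 4 libraries summed) that fell in each cell type (colours), 1 bar per gene. *Marco* was almost wholly in alveolar macrophages (98.4%), whereas *Colec12* was mostly in alveolar fibroblasts (64.6%) and *Stab1* mostly in endothelium (73.5%).

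Lymphocytes served as the background, since B, plasma and T cells are not known to use these receptors. In 84 to 179 such cells per library, with a median of 6323 to 9673 UMIs per cell, *Marco* and *Cd163* had no UMI, which allows up to 1.68% to 3.57% of cells with a UMI. *Colec12* was seen in 1.12% to 2.38% of lymphocytes, *Msr1* in 2.38% or less, *Mrc1* in 2.21% to 4.76%, *Stab1* in 1.12% to 3.57% and *Olr1* in 1.27% or less. Shares at or under these were read as background. Levels below are CPM, the UMIs of a gene per 1000000 UMIs of the class sum. A ratio of 2 libraries was called past 2-fold when it was at least 2-fold either way, the higher library had at least 20 UMIs and the counting interval of the ratio did not include 1. The same rule over all genes with 20 UMIs gave the share called in each comparison, which stands beside the receptor counts. The receptor counts are out of all 7, of which only 4 to 6 had 20 UMIs in either library of a comparison. The 2 denominators are therefore not alike.

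To examine the response to ventilation in young alveolar macrophages, the young ventilated library was set against the young nonventilated one. Of the 7 receptors, 2 were past 2-fold, *Colec12* and *Marco*, both higher, against 14.4% of 8055 genes called either way. *Colec12* (GRCm38 chromosome 18, 9707595 to 9882644) had 100, 1147, 431 and 210 UMIs in the 4 libraries, or 58.1, 534, 262 and 232 CPM. The young nonventilated library was the low one and the young ventilated library the high one, with both aged libraries in between. The young ratio was 9.19 (interval 7.49 to 11.4). *Marco*, the particle and bacteria receptor of alveolar macrophages, had 216, 653, 390 and 305 UMIs, or 125, 304, 237 and 338 CPM, and its young ratio was 2.42 (2.07 to 2.84). Unlike *Colec12*, *Marco* was highest in the aged ventilated library. *Msr1*, with 7 and 16 UMIs, had too few for the rule. *Mrc1* and *Olr1* were abundant and moved less than the rule requires, at ratios of 0.802 (0.771 to 0.835) and 0.794 (0.734 to 0.859).

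In aged alveolar macrophages ventilation gave another picture. Of the 7 receptors 1, *Msr1*, was past 2-fold, and it was lower (10 UMIs against 40, ratio 0.456, interval 0.203 to 0.927), against 6.21% of all genes called. This call rested on few molecules and was lost in 6 of the other settings. *Colec12* did not pass (ratio 0.888, 0.749 to 1.05), and *Marco* had a ratio of 1.43 (1.22 to 1.66). *Mrc1* stood at a ratio of 1.17 (1.11 to 1.23) and *Olr1* at 0.914 (0.820 to 1.02). The aged *Colec12* ratio had no settled direction: its log2 value was -0.17 as reported and 0.18 with no upper limits, 0.15 at 5% mitochondrial UMIs and 0.16 after thinning to 1000 UMIs per cell. It stayed far under the young value of 3.19 in each, and the difference between the ages could not be tested.

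Age was then compared within each condition. Among nonventilated libraries, *Colec12* (ratio 4.50, 3.62 to 5.66) and *Msr1* (40 UMIs against 7, ratio 5.97, 2.65 to 15.8) were higher in aged alveolar macrophages, 2 of 7 receptors against 4.36% of all genes. In the deeper alveolar macrophages that the upper limits removed, the *Colec12* age ratio was 1.45 (1.27 to 1.64) and not past 2-fold, and the *Msr1* one was 4.73 (2.71 to 8.81). With no upper limits the *Colec12* log2 ratio was 1.03 in place of 2.16. *Marco* was just under the limit at a ratio of 1.89 (1.59 to 2.24). Its log2 ratio of 0.91 ranged from 0.09 with no upper limits to 1.28 after thinning to 1000 UMIs per cell. In the deeper cells the *Marco* age ratio was 0.752 (0.662 to 0.854), the other direction. *Mrc1* stood at 0.760 (0.727 to 0.794). Among ventilated libraries only *Colec12* passed, at 0.435 (0.374 to 0.505) in the aged library, against 5.17% of all genes. The 4 comparisons share libraries, so a single low or high library enters 2 of them: the young nonventilated *Colec12* level of 58.1 CPM is the denominator of both large ratios. *Cd163* (1 UMI in all) and *Stab1* (1, 2, 1 and 2 UMIs) were at background in alveolar macrophages.

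**Figure D2:**
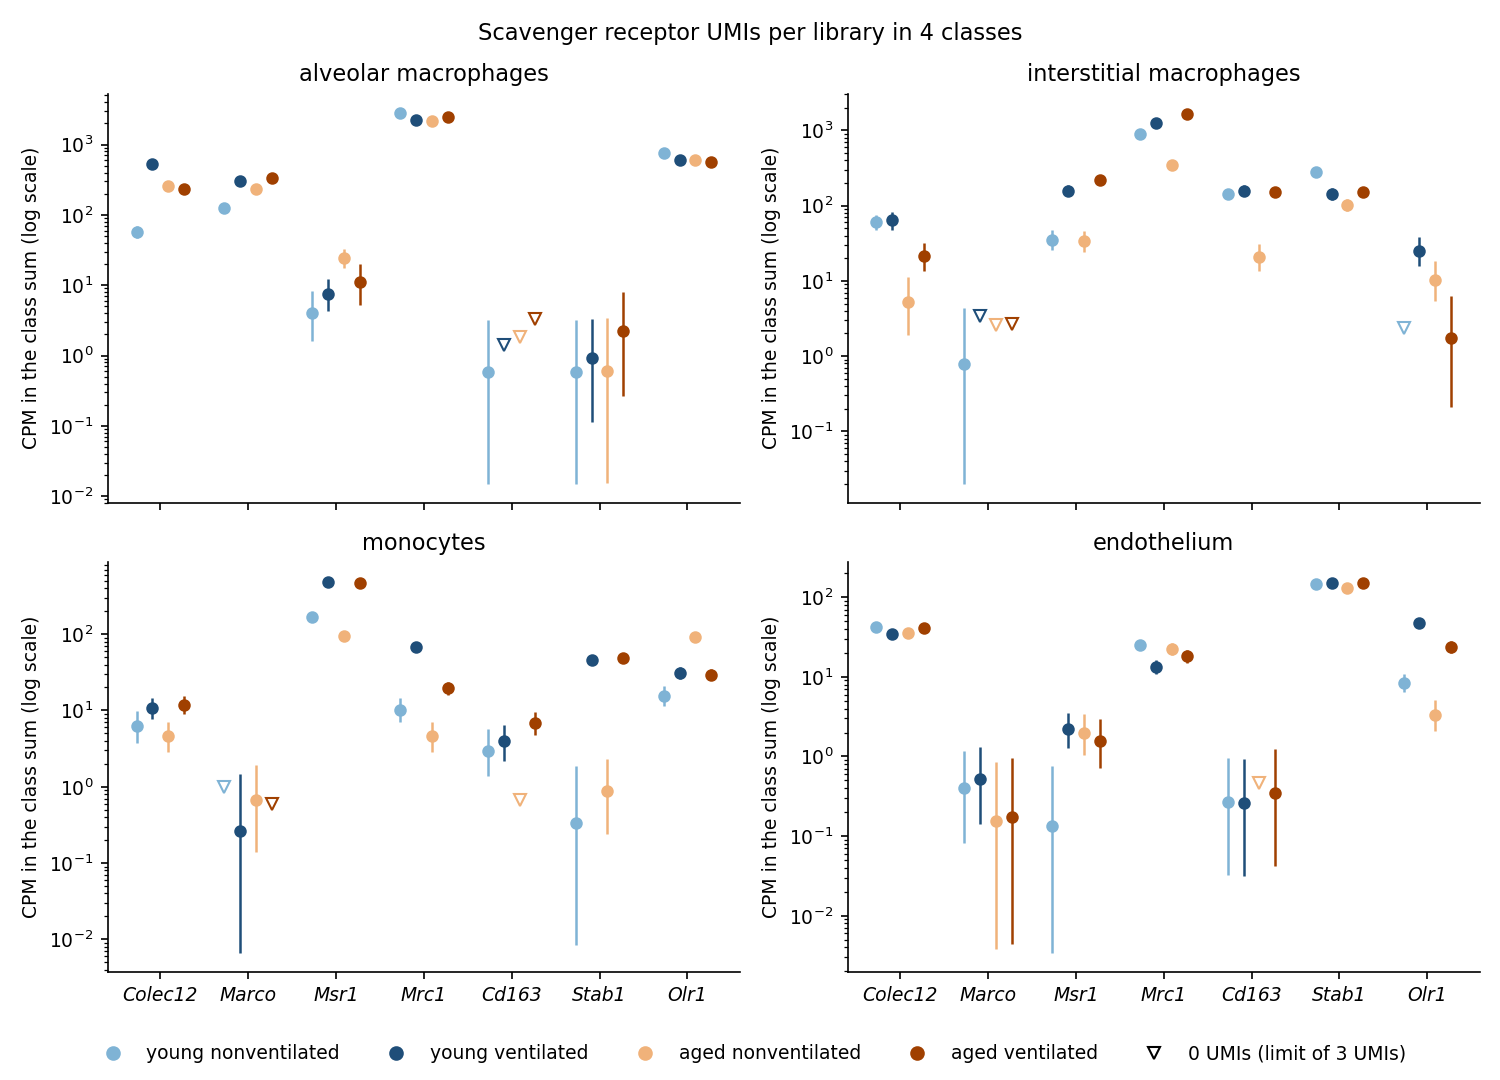
Level of each receptor (y axis, CPM of the class sum, log scale) in the 4 libraries (colours) in alveolar macrophages, interstitial macrophages, monocytes and endothelium, with 95% counting intervals as bars. In alveolar macrophages *Colec12* stood at 58.1 and 534 CPM in the young libraries, while the 4 *Mrc1* points lay between 2141 and 2818 CPM.

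*Colec12* was unevenly spread over alveolar macrophages. A UMI was seen in 22, 68, 47 and 29 cells (22.2%, 63.0%, 48% and 55.8%), with a median of 17276 to 19764 UMIs per cell. After thinning each cell to 1000 UMIs the shares were 3.03%, 25%, 15.3% and 13.5%, so the young nonventilated library was lowest and the young ventilated library highest at equal depth too. The 10, 11, 10 and 6 cells with the most *Colec12* held 83.0%, 56.1%, 73.3% and 67.6% of the *Colec12* UMIs, and the single highest cell held 39.0% in the young nonventilated library. Without the highest cell of each library the young log2 ratio was 3.75, against 3.19 with it (1 UMI added to each sum). *Marco* was likewise patchy, in 36.4%, 51.9%, 42.9% and 63.5% of cells, whereas *Mrc1* was found in 99.0% or more and *Olr1* in 94.2% or more.

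The patchy receptors overlapped in part. Of the *Colec12*-positive alveolar macrophages, 9 of 22, 38 of 68, 17 of 47 and 21 of 29 also had a *Marco* UMI. Of the *Colec12*-negative cells, 27 of 77, 18 of 40, 25 of 51 and 12 of 23 did. *Marco* was thus more frequent beside *Colec12* in 3 libraries and less frequent in the aged nonventilated one. *Msr1* was beside *Colec12* in 0 of 22, 5 of 68, 12 of 47 and 5 of 29 positive cells, and in 5 of 77, 4 of 40, 11 of 51 and 0 of 23 negative cells. All 5 *Msr1*-positive cells of the aged ventilated library were thus also *Colec12*-positive. In all 4 libraries each *Colec12*-positive cell also had an *Mrc1* UMI.

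**Figure D3:**
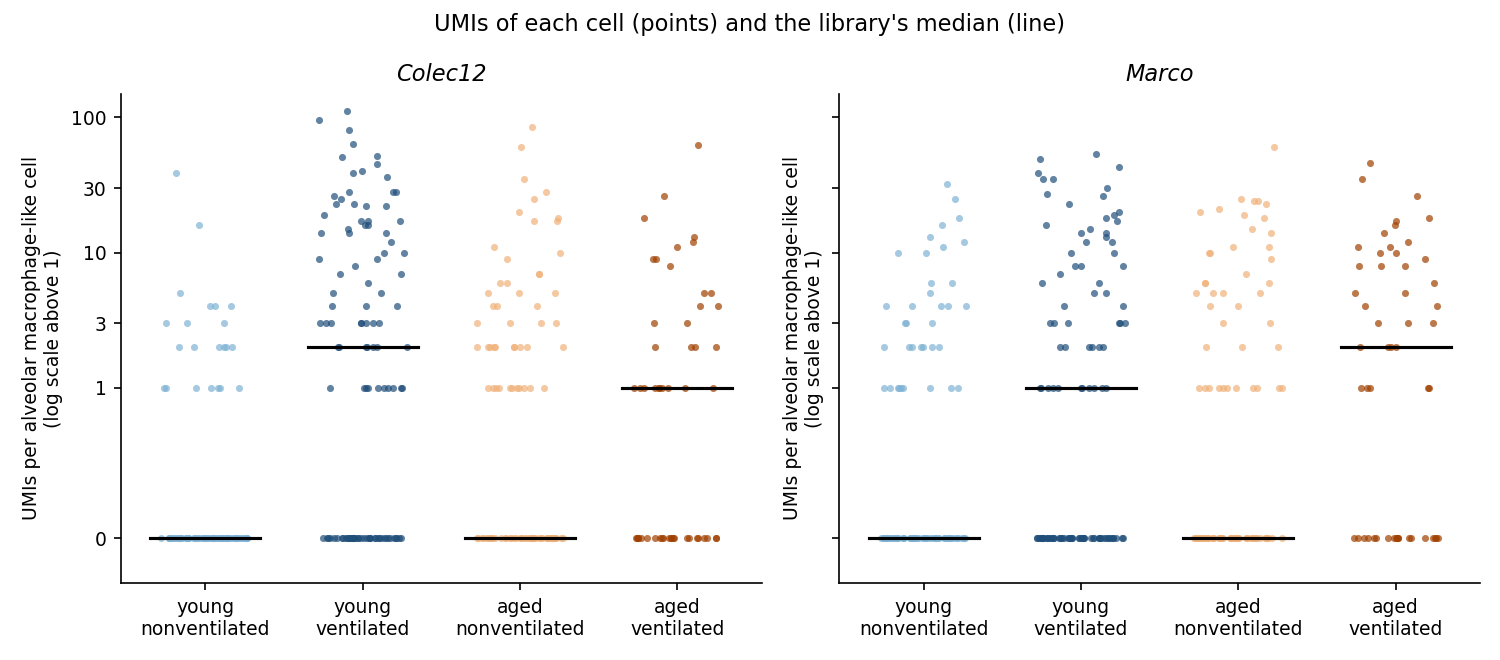
UMIs per alveolar macrophage (y axis) of *Colec12* and *Marco* in the 4 libraries, each point a cell and each line the median of its library. The *Colec12* median was 0 in both nonventilated libraries, 2 in the young ventilated and 1 in the aged ventilated library, and single cells reached 111 UMIs.

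Because fibroblasts hold most *Colec12* RNA, fibroblast markers were counted in the alveolar macrophages. The 8 alveolar fibroblast markers had 24, 21, 29 and 7 UMIs in all, with *Tcf21* at 0 in every library, and the 8 adventitial fibroblast markers had 17, 7, 22 and 15, with *Cd248* at 0. These sums were no higher in the young ventilated library than in the young nonventilated one. Alveolar fibroblasts themselves differed with ventilation: 1 cluster held 6 young nonventilated and 443 young ventilated cells, and another held 232 and 0. The part of fibroblast RNA in the *Colec12* ratios was not tested. Among cells with no more than 1 fibroblast marker UMI, *Colec12* had 59, 1062, 398 and 196 UMIs. The log2 ratios there were 3.73 in young ventilated over young nonventilated and 2.83 in aged over young nonventilated. In *Colec12*-positive cells alveolar fibroblast markers stood at 19.2, 11.9, 16.7 and 5.92 CPM, against 12.3, 6.26, 18.6 and 10.1 in the negative ones. They were thus higher in the positive cells of both young libraries and lower in those of both aged ones. Adventitial fibroblast markers stood at 4.79, 4.45, 5.96 and 13.8 CPM, against 11.5, 1.25, 21.0 and 20.2 CPM. The alveolar macrophage marker list was detected in full, 9 of 9 genes, in every library at 9952 to 11708 CPM. The aerocyte, myofibroblast and lymphatic marker lists did move with ventilation in the young cells, and in each list most UMIs came from a single gene, *Car4* (386 and 3268 UMIs), *Tgfbi* (473 and 2143) or *Pdpn* (36 and 260). Their part in the result was not tested.

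The upper limits on UMIs and genes mattered for alveolar macrophages, which are large cells. The limits removed 79, 86, 95 and 54 deeper cells of the same cluster type, nearly as many as were kept. In these, *Colec12* stood at 170, 595, 246 and 314 CPM, a young ratio of 3.50 (3.13 to 3.92) and an aged ratio of 1.28 (1.14 to 1.43). *Marco* stood at 224, 358, 169 and 421 CPM, so its aged ratio of 2.49 (2.22 to 2.80) was past 2-fold and its young ratio of 1.60 (1.43 to 1.78) was not. With no upper limit, *Marco* in young alveolar macrophages and *Colec12* in aged against young ventilated ones were no longer past 2-fold (log2 0.86 and -0.98). The latter was also lost with at most 5% mitochondrial UMIs (-0.73).

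Genes of related pathways in alveolar macrophages were taken from lists chosen with earlier results of these data known. Of 10 NRF2 targets with enough UMIs (12 in the list), 7 were past 2-fold higher in the young ventilated library (all genes 14.4% called), with a median log2 ratio of 1.26 against -0.10 over all genes tested. The cystine transporter *Slc7a11* stood at a ratio of 7.32 (5.97 to 9.05) and the sulfiredoxin gene *Srxn1* at 4.11 (3.06 to 5.61). In aged cells 3 of 10 passed (all genes 6.21%), with a median of 0.83 against -0.07, *Slc7a11* at 2.79 and *Srxn1* at 2.75. Of 8 heme and iron genes, 2 passed in the young cells, *Hmox1* (149 and 2080 UMIs, ratio 11.2) and the ferritin gene *Fth1* (2.61), and 2 in the aged cells, *Hmox1* (3.57) and the transferrin receptor gene *Tfrc* (9 and 38 UMIs, ratio 7.70). The same shares of all genes, 14.4% and 6.21%, stand beside these counts. *Hmox1* encodes the enzyme that degrades the heme which *Cd163* brings in, and it was measured in cells where *Cd163* itself was at background.

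The other lists are read against the same 14.4% of all genes called in young and 6.21% in aged alveolar macrophages, and lists with 1 or 2 genes past 2-fold out of about 10 were near that background. Of 10 C-type lectin receptors with enough UMIs, *Clec4e* (Mincle, ratio 5.50) and *Clec5a* (2.40) were higher in young ventilated alveolar macrophages, and 4 were lower, *Clec9a* (0.235) and *Clec1a* (0.276) the most. *Clec4e* was past 2-fold in aged cells as well (2.07), where 4 others were lower. Of 8 scavenger receptors of other classes, *Cxcl16*, which binds oxidized lipoprotein, was past 2-fold in young cells (4 and 41 UMIs), and none passed in aged cells. In the lectin receptor signaling list 2 of 10 genes passed in young cells, *Malt1* higher (2.24) and *Bcl10* lower (0.459), and none in aged cells. In the apoptotic cell clearance list 3 of 8 passed in young cells, among them *Itgav* (2.04) higher and the efferocytosis receptor gene *Mertk* (0.494) lower, and none of 7 in aged cells. Neither tested member of the mannose receptor family passed in any comparison. None of 12 genes of the endocytic machinery passed in any of the 4 comparisons. Among 11 macrophage transcription factors 5 passed in young cells and 3 in aged cells. *Nr1h3* (LXRα) had a young ventilation ratio of 5.18, and *Pparg*, which specifies alveolar macrophages, one of 0.337. The aged ratio of *Pparg* was 0.431.

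Interstitial macrophages carried *Mrc1*, *Cd163*, *Stab1*, *Msr1* and some *Colec12*, whereas *Marco* had 1 UMI in all. In young cells, *Msr1* and *Olr1* were past 2-fold higher in the ventilated library, 2 of 7 receptors against 25.1% of all genes. *Msr1* had 45, 139, 39 and 247 UMIs in the 4 libraries, or 35.1, 158, 33.9 and 218 CPM. Both ventilated libraries were high and both nonventilated ones low. The ratios were 4.49 (3.19 to 6.43) in young and 6.43 (4.57 to 9.26) in aged cells, and a *Msr1* UMI was seen in 29.1%, 50.8%, 22.2% and 53.7% of cells. *Olr1* had 0, 22, 12 and 2 UMIs, at least 10.7-fold higher in young ventilated than in young nonventilated cells with a floor of 3 counts in the library at 0 (exact lower limit 7.96). A single cell held 45.5% of the 22 UMIs. Without it 12 UMIs against 0 were left, under the minimum of 20 UMIs.

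In aged interstitial macrophages, 4 receptors were past 2-fold higher after ventilation, *Colec12*, *Msr1*, *Mrc1* and *Cd163*, against 11.3% of all genes. *Mrc1* had 1162, 1104, 398 and 1896 UMIs, or 906, 1251, 346 and 1672 CPM, so the aged nonventilated library was the low one. The aged ventilation ratio was 4.84 (4.34 to 5.40) and the young one 1.38 (1.27 to 1.50). *Cd163* had 183, 139, 24 and 174 UMIs, or 143, 158, 20.8 and 153 CPM, and again only the aged nonventilated library was low. Its aged ventilation ratio was 7.36 (4.79 to 11.8). *Colec12* had 77, 56, 6 and 24 UMIs, with an aged ratio of 4.06 (1.62 to 12.1). Without the top cells the ratio was 4.57 on 18 and 4 UMIs, under the minimum of 20 UMIs.

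Against young nonventilated cells, the aged nonventilated library was lower in 4 of 7 receptors, against 7.89% of all genes. These were *Colec12* (ratio 0.0867, 0.0309 to 0.198), *Mrc1* (0.381, 0.339 to 0.428), *Cd163* (0.146, 0.0912 to 0.224) and *Stab1* (0.361, 0.290 to 0.446). *Stab1* had 361, 127, 117 and 173 UMIs, or 282, 144, 102 and 153 CPM, and here the young nonventilated library stood above the other 3. Its young ventilation ratio of 0.511 (0.414 to 0.627) fell just short of the rule. With the UMI limit set over the barcodes left after the other filters, which gave 155 interstitial macrophages in place of 293, *Mrc1* (log2 -0.90) and *Stab1* (-0.85) were no longer past 2-fold in this comparison. Between ventilated libraries, *Colec12* (0.333, 0.198 to 0.547) and *Olr1* (2 against 22 UMIs) were lower in the aged one, against 12.1% of all genes. The *Colec12* call was lost with no upper limits (log2 -0.47) and after thinning to 1000 UMIs per cell. The *Olr1* call was lost in several settings, among them without the top cells (1 against 12 UMIs). *Mrc1*, *Cd163* and *Stab1* stood at ratios of 1.34, 0.974 and 1.06.

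Markers of neighbouring cell types moved within the interstitial macrophage class. The 9 interstitial macrophage markers summed to 7355, 6571, 5686 and 8903 CPM, lowest in the library where *Mrc1* and *Cd163* were low. The 10 conventional dendritic cell markers summed to 1257, 2590, 1877 and 1506 CPM, and adventitial fibroblast markers to 189, 70.3, 194 and 74.1. *Cd163*-positive cells numbered 24, 17, 12 and 14. In them the interstitial macrophage markers stood at 11345, 12217, 5955 and 13311 CPM, against 5865, 4878, 5640 and 8039 CPM in cells without *Cd163*. The positive and negative cells were thus close in the aged nonventilated library and apart in the others. Dendritic cell markers were lower in *Cd163*-positive cells (285 to 711 CPM) than in the others (1460 to 3196 CPM), and classical monocyte markers were higher (1135 to 2063 CPM against 265 to 518 CPM). Alveolar macrophage markers summed to 10.9, 49.9, 175 and 29.1 CPM over the class, highest in the aged nonventilated library. The 12 aged nonventilated positive cells thus held 24 *Cd163* UMIs and the 14 aged ventilated ones 174. The part of class makeup in these ratios was not tested.

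**Figure D4:**
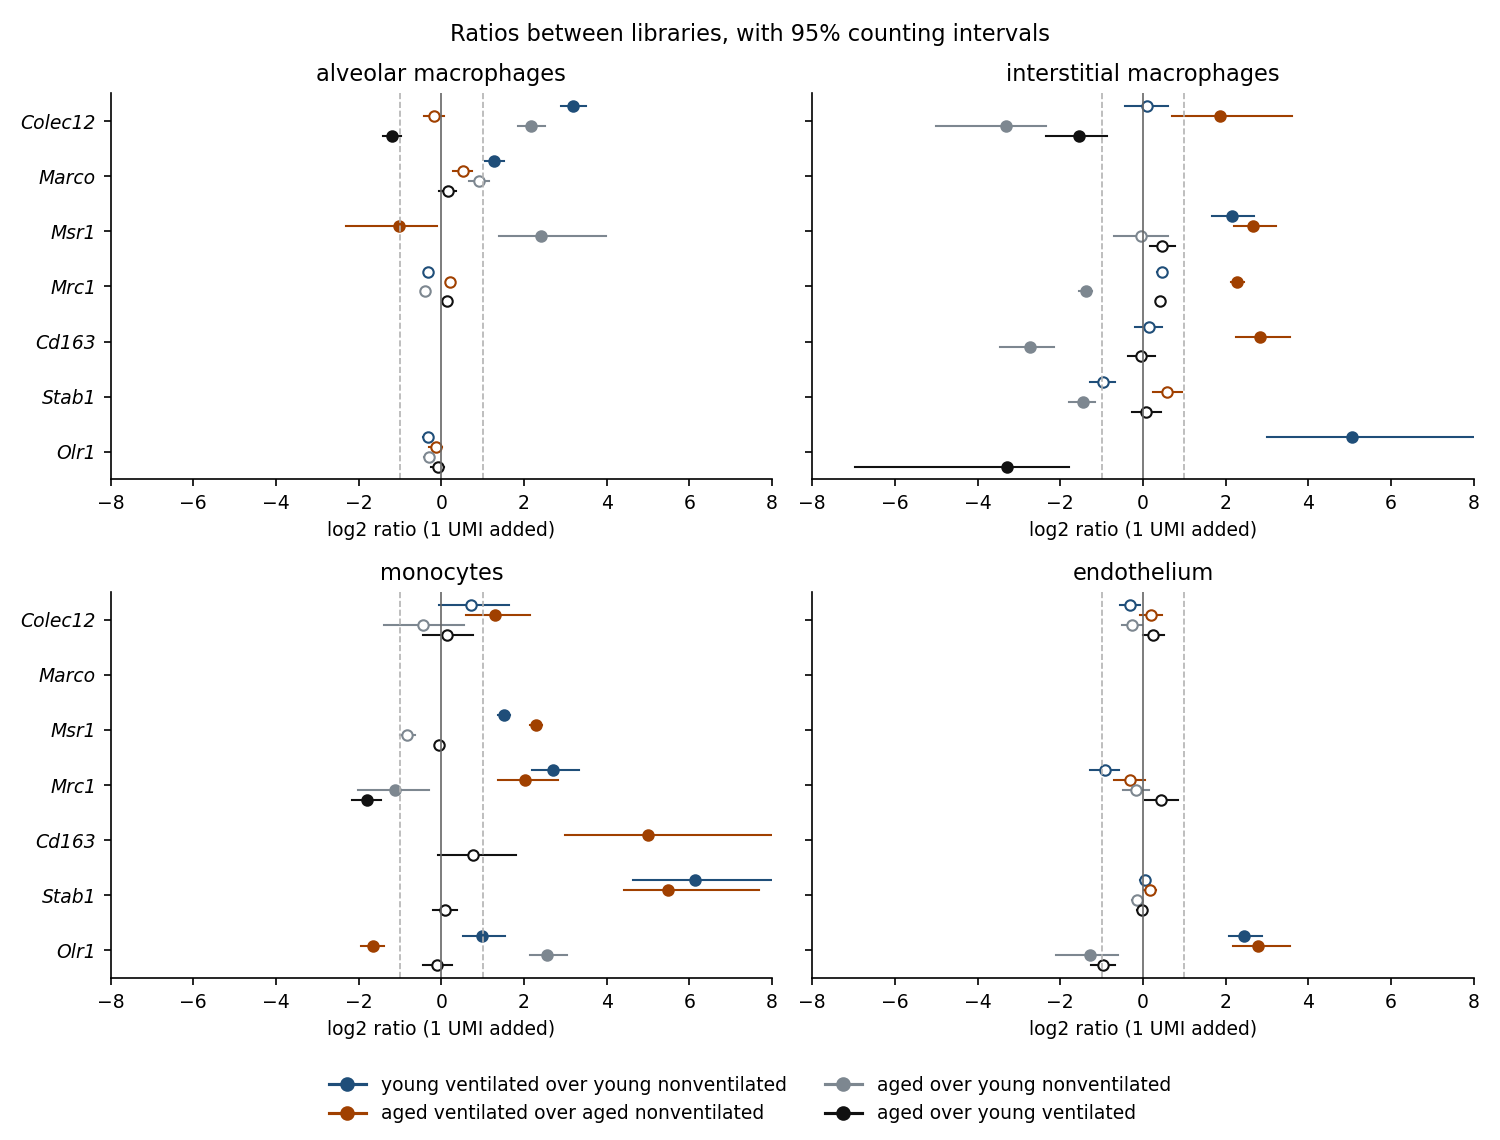
Log2 ratio of each receptor (x axis, 1 UMI added to each sum) with its 95% counting interval in the 4 comparisons (colours), in the 4 classes. *Colec12* in young alveolar macrophages stood at 3.19 and in aged ones at -0.17, and in aged nonventilated against young nonventilated interstitial macrophages *Colec12*, *Mrc1*, *Cd163* and *Stab1* all lay left of 0.

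Monocytes were the class in which most receptors moved with ventilation. In young monocytes *Msr1*, *Mrc1*, *Stab1* and *Olr1* were past 2-fold higher, 4 of 7 receptors against 21.3% of all genes. In aged monocytes *Colec12*, *Msr1*, *Mrc1*, *Cd163* and *Stab1* were higher and *Olr1* was lower, 6 of 7 against 22.7%. Among the more abundant genes (50 CPM or more on average), the median gene of aged monocytes was shifted by -0.16 on the log2 scale, the only class and comparison over 0.1 in that gene set, and these 6 receptors kept their calls after centring on it. Over all genes tested, low ones included, the median was also beyond 0.1 in young endothelium (-0.33), aged endothelium (-0.18), young interstitial macrophages (-0.12) and aged over young ventilated interstitial macrophages (0.11).

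*Stab1* had the widest contrast of the set. It had 1, 177, 4 and 249 UMIs in monocytes, or 0.331, 46.3, 0.890 and 49.3 CPM, so it was at background in both nonventilated libraries and present in both ventilated ones. The ratios were 140 (24.7 to 5548) in young and 55.4 (21.4 to 205) in aged monocytes. Classical monocytes held 0, 158, 1 and 229 of these UMIs, at least 43.3-fold higher in the young ventilated than in the young nonventilated library with the same floor (exact lower limit 34.8). A *Stab1* UMI was seen in 0 of 109 (which allows up to 2.75%), 42.9%, 0.813% and 58.4% of classical monocytes, and no single cell held over 4.43% of the UMIs of a ventilated library. Endothelial markers stood at 74.2 and 82.6 CPM in the *Stab1*-positive classical monocytes of the young and aged ventilated libraries against 164 and 80.1 in the *Stab1*-negative ones. Interstitial macrophage markers were at 674 and 755 CPM in the positive cells against 558 and 531 in the negative ones. The part of RNA from other cells was not tested.

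*Msr1*, the modified lipoprotein receptor, had 504, 1830, 425 and 2342 UMIs in monocytes, or 167, 478, 94.6 and 464 CPM. Both ventilated libraries stood above both nonventilated ones, with ratios of 2.87 (2.59 to 3.17) in young and 4.90 (4.42 to 5.45) in aged monocytes. The same order was seen within classical monocytes, at 255, 743, 235 and 741 CPM (ratios 2.91 and 3.16), and within nonclassical monocytes, at 57.9, 179, 35.2 and 127 CPM (ratios 3.08 and 3.60). Each subset taken alone thus kept the order of the whole class. The classical cells of the 2 conditions fell in different clusters: 1 cluster held 108 young and 142 aged ventilated cells and no nonventilated ones, and another held 105 young and 90 aged nonventilated cells with 1 and 3 ventilated ones.

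*Mrc1* and *Cd163*, both receptors of mature macrophages, were sparse in monocytes. *Mrc1* had 31, 262, 21 and 99 UMIs in 4.76%, 9.64%, 2.07% and 7.03% of cells, the nonventilated shares lying within the range of lymphocyte shares over the 4 libraries. The ventilation ratios were 6.67 (4.59 to 10.0) in young and 4.19 (2.60 to 7.08) in aged monocytes. In the *Mrc1*-positive classical monocytes, interstitial macrophage markers stood at 1238 CPM in the young ventilated and 3012 CPM in the aged ventilated library, against 418 and 398 in the *Mrc1*-negative cells. *Cd163* had 9, 15, 0 and 35 UMIs, at least 10.4-fold higher in aged ventilated than in aged nonventilated monocytes with the floor of 3 counts (exact lower limit 8.01). *Colec12* had 19, 41, 21 and 60 UMIs in 4.32% of cells or less. Over the class, interstitial macrophage markers summed to 72.5, 356, 61.0 and 418 CPM and neutrophil markers to 279, 1298, 334 and 2856, so both moved with ventilation, and their part in the receptor ratios was not tested.

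*Olr1* in monocytes was high in the aged nonventilated library. It had 47, 120, 418 and 148 UMIs, or 15.6, 31.4, 93 and 29.3 CPM. The young ventilation ratio of 2.01 (1.43 to 2.89) was at the limit and was lost in 5 of the other settings, and the aged one was 0.315 (0.259 to 0.381). Nonclassical monocytes, the patrolling subset, held 31, 83, 377 and 106 of these UMIs, with ratios of 2.01 (1.32 to 3.15) and 0.389 (0.311 to 0.484). Of the nonclassical cells, 11.9%, 17.8%, 28.8% and 24.4% had an *Olr1* UMI. Endothelial markers summed to 248, 295, 628 and 287 CPM in monocytes, highest in the same library. Of all aged nonventilated *Olr1* UMIs, however, endothelium held 1.44% and alveolar macrophages 65.9%. Alveolar macrophage markers stood at 34.0, 32.2, 78.9 and 45.6 CPM in *Olr1*-positive nonclassical monocytes, against 41.0, 18.3, 40.9 and 61.8 CPM in the negative ones. The part of RNA from other cells was not tested.

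By age, nonventilated monocytes had *Olr1* higher (ratio 5.98, 4.41 to 8.26) and *Mrc1* lower (0.455, 0.249 to 0.818) in the aged library, 2 of 7 receptors against 5.24% of all genes. Both *Mrc1* shares there lay within the range of lymphocyte shares over the 4 libraries, but the upper end of that range came from the young ventilated library. Among classical monocytes, 8 cells with and 101 without *Mrc1* were young nonventilated, and 3 with and 120 without were aged nonventilated. The *Mrc1* call rested on 21 UMIs against 31, and as a mean over cells its log2 ratio was -0.12 in place of -1.11. It is therefore not read as a difference in expression. Ventilated monocytes had *Mrc1* lower (0.286, 0.225 to 0.362), 1 of 7 against 3.97%. *Msr1* and *Stab1* stood at aged over young ventilated ratios of 0.970 (0.912 to 1.03) and 1.07 (0.875 to 1.30).

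In endothelium the abundant receptor was *Stab1*, and *Olr1* was the one that moved. *Stab1* had 1089, 1182, 866 and 859 UMIs, or 146, 152, 132 and 149 CPM, and none of its 4 ratios left the range 0.904 to 1.13. In young endothelium *Olr1* was higher after ventilation, 1 of 7 receptors against 29.7% of all genes. It had 63, 365, 22 and 138 UMIs, or 8.47, 46.9, 3.36 and 23.9 CPM, and a young ratio of 5.54 (4.23 to 7.36). In aged endothelium *Olr1* was again the 1 receptor past 2-fold, at 7.12 (4.52 to 11.7), against 18.1%. It was lower in aged than in young nonventilated endothelium (0.397, 0.233 to 0.654), 1 of 7 against 3.54%, but a single lymphatic cell held 50 of the 63 young nonventilated UMIs, and without the top cells the log2 ratio turned from -1.29 to 0.19. Between ventilated libraries no receptor passed, against 5.98% of all genes, and *Olr1* stood at 0.510 (0.416 to 0.622).

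Apart from that lymphatic cell, the *Olr1* UMIs of endothelium lay mostly in venous cells. Venous cells held 7, 356, 20 and 132 of them, in 4 of 87, 14 of 62, 5 of 87 and 14 of 82 cells. The venous level was 7.80, 551, 25.1 and 133 CPM, with the young ventilated library highest. The young ratio was 70.6 (33.9 to 177), the aged ratio 5.29 (3.29 to 8.95), and the aged ventilated level was 0.241 (0.196 to 0.295) of the young ventilated one. A single cell held 40.7% of the young ventilated venous UMIs. *Olr1*-positive venous cells had 0, 3, 1 and 1 UMIs of alveolar macrophage markers and 0, 4, 1 and 17 of neutrophil markers. Nonclassical monocyte markers had 38, 86, 55 and 84 UMIs in these cells. That was 694, 475, 602 and 522 CPM, against 634, 630, 646 and 837 CPM in the venous cells without *Olr1*. Venous markers stood at 8092 to 13097 CPM in the positive cells, against 4272 to 5469 CPM in those without *Olr1*. The part of RNA from other cells was not tested.

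The other endothelial signals were lymphatic or steady. Lymphatic cells, 31, 31, 29 and 20 in number, had *Stab1* at 767, 862, 1194 and 801 CPM and *Mrc1* at 505, 286, 604 and 403 CPM, and *Mrc1* is a known lymphatic gene as well as a macrophage one. *Colec12* in lymphatic cells had 84, 39, 68 and 34 UMIs, with a young ventilation ratio of 0.495 (0.330 to 0.732). In venous cells *Colec12* stood at 176, 179, 151 and 146 CPM, within a narrow range. *Marco*, *Msr1* and *Cd163* had 17 UMIs or fewer per library in the whole endothelium.

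Upstream sequences were taken from RefSeq (GRCm38.p6) for the genes whose RNA moved or marked a class, to show what precedes their starts. Sequences are printed for 5 of the 7 measured receptors, and *Colec12* and *Msr1* are not among them. The 250 bases before the start are printed 5′ to 3′ on the strand of the gene. Capitals mark matches to letter patterns of factors active in macrophages: PU.1 (GAGGAAG, or CTTCCTC when on the other strand), AP-1 (TGANTCA) and the antioxidant response element bound by NRF2 (TGACNNNGC), each searched on both strands. No 2 matches overlapped.

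*Marco*, chr1:120505025-120505274, minus strand: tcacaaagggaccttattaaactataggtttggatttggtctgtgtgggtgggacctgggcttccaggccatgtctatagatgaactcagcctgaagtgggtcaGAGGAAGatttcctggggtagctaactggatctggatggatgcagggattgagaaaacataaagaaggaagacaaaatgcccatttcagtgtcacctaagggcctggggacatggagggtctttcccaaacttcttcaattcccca

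*Mrc1*, chr2:14229164-14229413, plus strand: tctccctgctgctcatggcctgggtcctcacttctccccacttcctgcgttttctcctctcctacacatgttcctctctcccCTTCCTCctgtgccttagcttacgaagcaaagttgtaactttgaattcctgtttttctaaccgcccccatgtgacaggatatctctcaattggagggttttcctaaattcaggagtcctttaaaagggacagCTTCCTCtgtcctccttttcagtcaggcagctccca

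*Olr1*, chr6:129507166-129507415, minus strand: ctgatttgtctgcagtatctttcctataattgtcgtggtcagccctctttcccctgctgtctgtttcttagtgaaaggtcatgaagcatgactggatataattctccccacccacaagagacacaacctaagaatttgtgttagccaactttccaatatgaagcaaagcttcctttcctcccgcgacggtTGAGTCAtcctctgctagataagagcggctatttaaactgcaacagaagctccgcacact

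*Cd163*, chr6:124304401-124304650, plus strand: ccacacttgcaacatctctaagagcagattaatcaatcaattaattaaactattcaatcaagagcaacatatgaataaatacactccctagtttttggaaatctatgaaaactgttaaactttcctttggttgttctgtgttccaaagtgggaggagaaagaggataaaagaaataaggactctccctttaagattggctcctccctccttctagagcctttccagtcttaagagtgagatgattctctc

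*Stab1*, chr14:31168642-31168891, minus strand: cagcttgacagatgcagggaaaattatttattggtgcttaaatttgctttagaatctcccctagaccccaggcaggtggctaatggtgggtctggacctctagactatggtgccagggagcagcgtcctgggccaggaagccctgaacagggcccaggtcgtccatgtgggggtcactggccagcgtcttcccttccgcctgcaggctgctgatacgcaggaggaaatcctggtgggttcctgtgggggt

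*Marco* had 1 PU.1 match, 146 to 140 bases before its start, and *Mrc1* had 2 on the opposite strand, 168 to 162 and 36 to 30 bases before its start. *Olr1* had 1 AP-1 match, 60 to 54 bases before its start. *Cd163* and *Stab1* had no match, and the antioxidant pattern was in none of the 5. Over 32851 promoters of the same length, 10.6% held the PU.1 letters, 6.75% the AP-1 letters and 10.2% the antioxidant letters. A match is a description of letters and not a bound site.

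Genes with the most similar pattern to each receptor were found over 64 sums (16 cell types in 4 libraries, 9362 genes) by Pearson correlation of log2 levels. These sums share libraries and depth, and the correlations are a description. *Marco* was most like *Cidec* (r = 0.958), *Mrc1* like *Slc39a12* (0.901), *Msr1* like *Ccl9* (0.909) and *Fcgr1* (0.900), and *Cd163* like *Ccl12* (0.923) and *C1qc* (0.917). *Colec12* was most like *Emilin1* (0.832), *Stab1* like *Tal1* (0.732) and *Olr1* like *C5ar2* (0.827).

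On the GRCm38 annotation (GENCODE vM21), *Marco* spans 120474538 to 120505024 on chromosome 1, *Mrc1* spans 14229392 to 14332057 on chromosome 2 and *Stab1* spans 31139013 to 31168641 on chromosome 14. *Cd163* (124304656 to 124330527) and *Olr1* (129485244 to 129507165) are on chromosome 6, where *Clec7a* (129461591 to 129472779) lies close to *Olr1*. *Msr1* spans 39581685 to 39642673 on chromosome 8.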

How the data were processed

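Lungs of young and aged mice, nonventilated or ventilated, were profiled by droplet single-cell RNA sequencing (10x 3′ kit), with cells of 3 animals pooled in each of 4 libraries. The deposited files are matrices of raw UMI counts, whole numbers for each barcode, which the authors made with Cell Ranger 7.0.0 on the mm10 mouse reference without further normalization. Total counts per library are given with the results, and with 1 pooled library per group precision is that of counting only. Groups were taken from the sample labels.

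After the limits the study describes, a barcode was kept if it had from 200 to 5000 genes, a mitochondrial share of 10% or less and no more than 28597.1 UMIs (the 93rd percentile of all barcodes). The study does not say over which barcodes this percentile was taken, and the number of deep alveolar macrophages kept depends on it. Seurat 5.3.0 in R 4.3.3 normalized each cell to 1000000, took 2000 variable genes and 37 principal components and clustered at resolution 0.5, giving 30 clusters and 21 cell types. Names came from marker lists, by a rule set after the clusters were seen: a type needed at least 3 detected markers. Scrublet (scanpy 1.11.5) called too few cells to be of use, so no doublets were removed and its highest 5% of scores were left out only as an alternative.

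UMIs were summed per library and class. Ratios of CPM have exact conditional binomial intervals, levels exact Poisson intervals and shares exact Clopper-Pearson intervals. For log2 ratios 1 UMI was added to each sum. The 2-fold rule (at least 20 UMIs in the higher library) was tested on simulated counts with known folds. Genes outside the set were named if they passed this rule, at most the 2 highest and 2 lowest of each list and comparison, or if their pattern was among the 3 most like a receptor (log2 of CPM + 1). The set, the lists and the rules were chosen with earlier results of these data known. Alternatives covered cell limits, clustering, centring, thinning to 1000 UMIs, background RNA and minimum UMIs. Leaving out the top cell, the fibroblast-marked cells, the shallow monocyte cluster or the lymphatic cells was added after seeing the data. *Clec7a* was not analysed here. Promoters, positions and motif counts came from RefSeq and GENCODE vM21 tables of GRCm38.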

Additional observations from a re-analysis of the deposited data

Results flagged for a closer look

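*Colec12* after ventilation had a log2 ratio of 3.19 in young alveolar macrophages and one of -0.17 in aged ones, opposite in sign as computed, and the difference between the ages was not tested. The aged value lay within counting error of no difference and was above 0 in 3 of the other settings, 0.18 at most, and in the deeper cells the aged ratio was 1.28 (1.14 to 1.43), so the aged cells showed no settled direction.

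*Olr1* moved in opposite directions in young and aged monocytes, at log2 ratios of 0.99 and -1.66, and this difference was not tested either.

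The deeper alveolar macrophages that the upper limits removed, which enter no comparison between classes, held *Colec12* at 595 CPM in the young ventilated library, above the 170 CPM of the young nonventilated library.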

How the results depend on the processing

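No paired analysis was possible because each group was 1 pooled library, and for the same reason no replicate could be left out. Of 34 receptor ratios past 2-fold, 30 kept their direction under every alternative. Keeping the direction is less than staying past 2-fold, and many of the 34 calls were lost in at least 1 alternative. Examples are *Marco* in young alveolar macrophages with no upper limits and *Cd163* in aged monocytes with a minimum of 50 UMIs. Thinning each cell to 1000 UMIs, which leaves fewer genes with 20 UMIs, gave 3 calls in interstitial macrophages in place of 12, 6 in monocytes in place of 13 and 1 in endothelium in place of 3. In endothelium, subtracting background RNA gave 6 calls and a minimum of 10 UMIs gave 5. Under thinning the log2 ratio turned to 0.50 for *Msr1* in aged alveolar macrophages, to -0.61 for *Colec12* in aged ventilated over aged nonventilated monocytes and to 1.65 for *Mrc1* in aged over young nonventilated monocytes, all on at most 5 UMIs in a library. For *Olr1* in aged over young nonventilated endothelium it turned to 0.29 with the UMI limit over the barcodes left, 0.99 without the highest Scrublet scores, 0.83 without lymphatic cells and 0.19 without the top cells. *Colec12* in young alveolar macrophages ranged from 2.20 with no upper limits to 4.68 with the UMI limit over the barcodes left. Interstitial macrophages formed no class of their own at resolution 0.18 and gave no value there. Receptors with under 20 UMIs, such as *Msr1* in young alveolar macrophages (7 and 16), had too few molecules for the rule.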

Other observations

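Receptor levels outside the 4 classes were as follows. Alveolar fibroblasts held *Colec12* at 826, 628, 879 and 691 CPM in the 4 libraries, in the order used above. Neutrophils held *Olr1* at 270, 313, 213 and 84.6 CPM, with 149, 339, 52 and 111 UMIs, lowest in the aged ventilated library.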
